A study of Homo sapiens with 6 samples.

Results

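The genes described here lie on chromosome 6 between 292487 and 73198853 of GRCh38, from the tip of the short arm into the first part of the long arm. A RefSeq table places 1908 genes in that stretch, of which 932 are in the count table and 318 had a mean of at least 1 CPM (the counts of a gene scaled to a fixed total per library) over the 6 libraries. Of these, 76 were left out by name, among them histone, HLA, kinesin and ribosomal protein genes, which left 242 members of 13950 genes tested in all. The boundaries of the stretch were chosen from the measured difference between the lines compared below. That difference is therefore given as a description, with no test, and the question is which members did not share it. By type, 238 members code for protein.

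MDA-MB-468 is an established human triple-negative breast cancer line, grown in DMEM with serum. Its derivative MDA-MB-468-PR, called resistant here, grew out of 2 months in paclitaxel, which binds and stabilises microtubules, at 3 to 4.5 nM. Each line has 3 libraries, called control and resistant 1 to 3, and every sample is labelled untreated. Control 1 and resistant 1 belong to a batch labelled 2020, and controls 2 and 3 and resistants 2 and 3 to a batch labelled 2021. All resistant libraries came from 1 derivative, so paclitaxel cannot be told apart from other changes that arose during its culture. Whether replicates came from separate cultures is not in the labels. P-values therefore rest on the spread among these libraries, part of which may be technical.

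Libraries held 37889818 to 93680129 counts. No 2 libraries of a line agreed within sampling noise (chi-square over its degrees of freedom 75.4 to 220), and each was counted as a sample. Epithelial markers were high in all libraries (EPCAM 388 to 645 CPM, KRT19 1922 to 2420 CPM) and EGFR stood at 2750 to 7224 CPM. The receptor genes that define the triple-negative class stood at 0 CPM for PGR, 0.752 to 4.43 CPM for ESR1 and 96.1 to 134 CPM for ERBB2. Of 4 immune markers, PTPRC and CD3E reached at most 0.0951 CPM, CD14 stood at 6.34 to 19.04 CPM and CD68 at 2.01 to 4.09 CPM. Of the fibroblast markers, DCN and PDGFRB reached at most 0.174 CPM and COL1A1 stood at 21.98 to 28.7 CPM. Summed, the 4 immune markers stood at 8.42 to 21.4 CPM in controls and 12.4 to 19.91 CPM in resistant cells, and their part in the results was not tested.

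Copy number of DNA can change over a whole chromosome, an arm or a smaller part of it, and the RNA of genes in the changed part often shifts with it. Neighbouring genes can also differ together through shared regulation, and single genes through their own. The short arm of chromosome 6 carries the major histocompatibility complex, clusters of histone and zinc finger genes, and many genes that every cell uses, such as those for mitochondrial ribosomes and splicing. DNA copy number was not analysed here, and whether it differs between the lines was not tested.

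The 4 promoters below belong to the 2 members farthest above and the 2 farthest below the common difference. They are shown because most members shared 1 difference and these 4 are the farthest from it on each side. EYS lies on the long arm, where the 10 members had a median log2 difference of only -0.050 between the lines. Each is the 250 bases before the RefSeq start of the gene, 5′ to 3′ on the gene's strand, from RefSeq on GRCh38.p14, with CpG dinucleotides in capitals. EYS lies on the minus strand with its window at chr6:65707227-65707476, and NEDD9 on the minus strand at chr6:11382349-11382598. PEX39 lies on the minus strand at chr6:42890822-42891071, and LINC03040 on the plus strand at chr6:44000335-44000584.
EYS: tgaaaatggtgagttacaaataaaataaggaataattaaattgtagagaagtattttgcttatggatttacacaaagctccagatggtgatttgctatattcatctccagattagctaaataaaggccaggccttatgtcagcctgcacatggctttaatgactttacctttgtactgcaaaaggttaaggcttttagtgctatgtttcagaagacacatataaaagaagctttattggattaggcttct
NEDD9: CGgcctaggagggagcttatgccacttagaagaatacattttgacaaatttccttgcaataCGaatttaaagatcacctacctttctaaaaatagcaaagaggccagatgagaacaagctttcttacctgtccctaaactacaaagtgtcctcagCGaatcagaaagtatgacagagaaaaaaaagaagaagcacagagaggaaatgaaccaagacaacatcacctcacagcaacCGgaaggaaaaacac
PEX39: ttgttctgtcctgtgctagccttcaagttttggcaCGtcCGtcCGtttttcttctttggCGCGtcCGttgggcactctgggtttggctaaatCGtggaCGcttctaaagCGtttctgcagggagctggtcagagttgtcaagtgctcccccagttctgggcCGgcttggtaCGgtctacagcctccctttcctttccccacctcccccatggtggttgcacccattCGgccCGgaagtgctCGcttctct
LINC03040: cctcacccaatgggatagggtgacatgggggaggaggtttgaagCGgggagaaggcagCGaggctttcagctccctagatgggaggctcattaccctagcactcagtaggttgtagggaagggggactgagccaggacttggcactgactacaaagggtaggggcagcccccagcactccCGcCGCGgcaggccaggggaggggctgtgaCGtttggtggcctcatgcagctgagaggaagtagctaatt
The EYS window holds 0 CpG, NEDD9 4, LINC03040 6 and PEX39 14. The last bases of all 4 windows also lie in an annotated transcript. Of the 18 members above the common difference, defined below, 16 have an entry in the promoter table, with a median of 20.5 CpG. The 195 matched members called neither above nor below it had a median of 19, and the 11090 matched genes among all tested had 21. Fewer than 10 CpG were present in 5 of those 16 (31.2%), in 14.9% of the 195 and in 17.4% of all tested genes. The 5 include RIPOR2, whose window (chr6:24935961-24936210) lies inside the gene's span of 24804284 to 25042168. The motif TATAAA, searched on both strands, was in 2 of the 16 (EYS and SERPINB9), in 4.62% of the 195 and in 5.83% of all tested genes. These are counts of letters in a window, not of sites in use.

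Across the stretch the resistant line had less RNA of nearly every member, by a similar ratio. Summed over the 242 members, controls 1, 2 and 3 had 18395, 16978 and 17173 CPM, and resistants 1, 2 and 3 had 12720, 11549 and 11425 CPM, so the groups do not overlap. The mean was 17516 ± 768 CPM (SD, n = 3) in controls and 11898 ± 714 CPM (SD, n = 3) in resistant cells, a ratio of 0.679. CPM here and below are scaled by TMM, a factor per library that offsets differences in composition. The median fitted log2 difference over members was -0.61, which is 1.53-fold lower, against -0.0039 over all tested genes. This median is called the common shift. In bulk RNA, fewer cells of a type and less RNA per cell cannot be told apart.

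The size of the shift was nearly the same in each resistant library. Set against the controls of its own batch, the median over members was -0.60 in resistant 1, -0.58 in resistant 2 and -0.63 in resistant 3 on the log2 scale. It was -0.60 within 2020, where 1 library of each line was compared, and -0.61 within 2021. By gene, 224 of 242 members (92.6%) had a fitted difference below 0, against 50.6% of all tested genes. The threshold of the edgeR quasi-likelihood test (Benjamini-Hochberg adjusted p under 0.05) was passed in the lower direction by 163 members, where 5.48% of all tested genes passed it. In the higher direction 0 members passed, against 6.23% of all tested genes. At an adjusted p under 0.05 DESeq2 called 2 higher (EYS and NEDD9) and limma voom 0. At an unadjusted p under 0.05 edgeR had 3 higher (EYS, NEDD9 and OGFRL1). In 159 members the 3 resistant libraries lay below the 3 controls without overlap (background 10.2%), and in 2 they lay above (background 10.7%). Because the stretch was chosen on this contrast, nothing is read from these counts. The count of 163 was 89 without resistant 3 and 55 without the batch term.

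**Figure D1:**
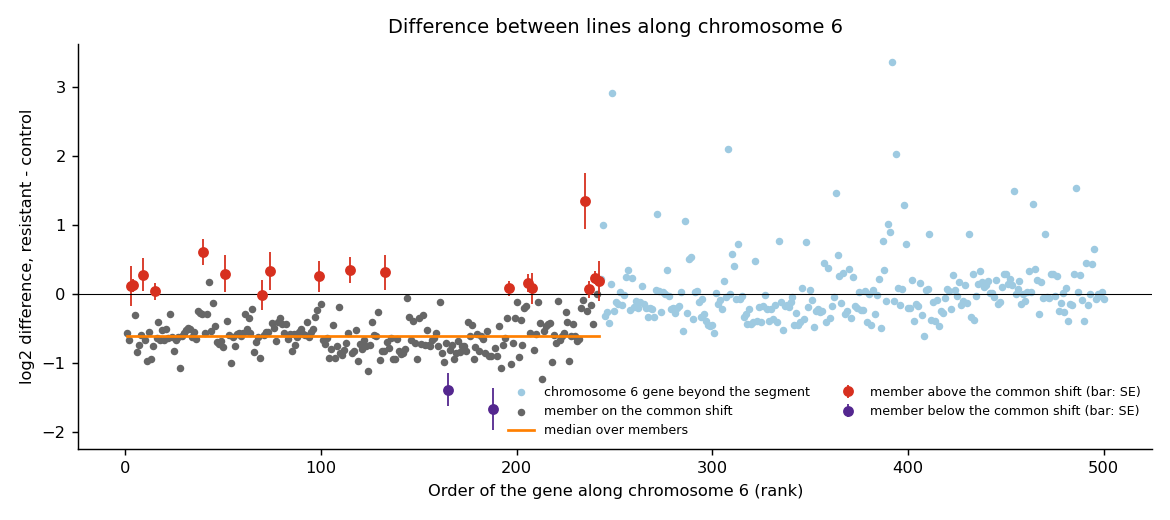
Each point is a gene of chromosome 6 with a mean of at least 1 CPM, by its rank from the tip of the short arm (x) and its fitted log2 difference between resistant and control libraries (y). Grey points are members on the common shift, red and violet points members above and below it with the standard error as bar, pale blue points the 258 genes beyond the segment, and the orange line is the median of -0.61. Red points lie mostly near 0, and the last members before the pale blue points lie above the line.

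The spread around the shift was similar to that among genes elsewhere. The interquartile range of the log2 differences was 0.341 for members. For 11609 genes of other chromosomes, also with a mean of at least 1 CPM but not matched by level, it was 0.338. The SD was 0.345 for members and 0.471 for those genes. The middle 50% of members lay between -0.76 and -0.42, and 219 of 242 (90.5%) lay within 1.5-fold of the median. The differences measured in 2020 and in 2021 had a Pearson r of 0.576 across the 242 members, given as a description since the genes share libraries. In both batches 178 members lay on the same side of the batch's median. Spread was larger at low levels, with an SD of 0.456 in the 81 members at 1.03 to 18.7 CPM, 0.278 in the next 80 and 0.257 in the 81 at 54.8 to 625 CPM.

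**Figure D2:**
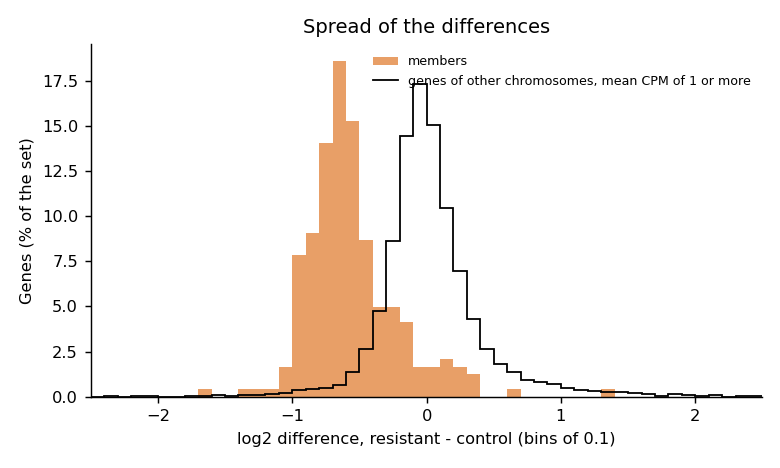
Percent of genes (y) in bins of 0.1 of the fitted log2 difference between resistant and control libraries (x), for the 242 members in orange and for 11609 genes of other chromosomes in the black outline. The members form a peak of similar width, with an interquartile range of 0.341 against 0.338, moved to a median of -0.61.

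A member was called off the shift when the 95% interval of its log2 difference excluded -0.61, it deviated by at least 1.5-fold, and it lay on the same side of the median in 2020 and in 2021. By this description 18 members (7.44%) were above the shift and 2 (0.826%) below it. The other 222 are called on it, which means only that they were not called off it. With the same description around their own median, 6.58% of the genes of other chromosomes were above and 2.67% below. The share above is thus near that background. Of the 18 above, 11 were among the 81 members of lowest level, 3 among the next 80 and 4 among the 81 of highest level. The shift was 1.53-fold, close to the 1.5-fold asked, so a member above it could not be much lower in the resistant line. Most of the 18 stood near equal levels in both lines, which the rule largely fixes. In 2 (EYS and OGFRL1) all resistant libraries were above all controls. On the long arm, where the 10 members had a median log2 difference of -0.050, lay 4 of the 18 (EYS, FAM135A, OGFRL1 and KCNQ5). Members above the shift had a median mean level of 13.4 CPM and those on it 37.9 CPM, and the median gene length was 48.0 kb and 30.0 kb, each given as a description.

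EYS, a secreted protein of the photoreceptor matrix (chr6:63719980-65707226), was farthest above the shift. It lies on the long arm, where the median over members was -0.050 and the common shift did not hold. Controls 1, 2 and 3 had 1.64, 0.590 and 1.83 CPM and resistants 1, 2 and 3 had 3.64, 4.23 and 2.43 CPM. All resistant libraries were above all controls, and the fitted level was 2.54-fold higher (log2 difference 1.35 ± 0.41 SE, 3.88-fold off the shift). EYS overlaps PHF3, a chromatin reader gene with 126497 counts over the 6 libraries. No source used here gives the strand setting of the counting. Reads in the part that both genes cover, from 63719980 to 63726011, therefore cannot be told apart. PHF3 itself was at 363 ± 60.4 CPM in controls and 338 ± 8.75 CPM in resistant cells.

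NEDD9 encodes a scaffold protein of focal adhesions (chr6:11183298-11382348). Controls had 38.0, 19.3 and 12.9 CPM and resistants 42.4, 31.04 and 26.3 CPM. Within each batch the resistant libraries were above the controls, but control 1 exceeded resistants 2 and 3. The fitted level was 1.52-fold higher (log2 difference 0.61 ± 0.19 SE), 2.32-fold off the shift, and 0.15 in 2020 against 0.85 in 2021. NEDD9 and EYS are the 2 members that remained above the shift when 2-fold was asked in place of 1.5-fold.

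SCUBE3, a secreted glycoprotein that takes part in TGF-beta and BMP signalling, had 6.29, 6.31 and 4.62 CPM in controls and 5.92, 8.03 and 7.98 CPM in resistants. Resistant 1 was below control 1, and both resistant libraries of 2021 were above both controls of 2021. Its fitted difference was 0.35 ± 0.19 SE, 1.94-fold off the shift. RIPOR2, an inhibitor of RhoA, had 14.9, 17.3 and 9.12 CPM in controls and 16.3, 13.5 and 21.7 CPM in resistants. The groups overlap, and the fitted difference was 0.33 ± 0.27 SE.

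PIM1 encodes a serine/threonine kinase that is induced by cytokine signalling (chr6:37170152-37175428). Controls had 49.1, 8.04 and 9.96 CPM and resistants 64.0, 14.8 and 7.02 CPM. The 2 libraries of 2020 were far above the 4 of 2021, and between lines the groups overlap. From 2020 to 2021 PIM1 fell by 2.503 on the log2 scale (± 0.26 SE, edgeR quasi-likelihood test, adjusted p = 0.00265). Its difference between lines was 0.31 ± 0.26 SE, 1.89-fold off the shift.

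GMPR, which reduces GMP in purine salvage, was the member closest to the minimum level, with 0.745, 1.04 and 0.988 CPM in controls and 1.05, 1.43 and 0.924 CPM in resistants. SERPINB9 encodes an inhibitor of granzyme B and lies with SERPINB1 and SERPINB6 at the tip of the short arm. Controls had 1.52, 1.001 and 1.36 CPM and resistants 2.07, 1.28 and 1.42 CPM, so the groups overlap. The difference of SERPINB9 was 0.28 ± 0.24 SE. Its neighbours followed the shift, SERPINB1 with a difference of -0.60 ± 0.10 SE and SERPINB6 with -0.66 ± 0.13 SE.

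ZSCAN12, a zinc finger gene of the 6p22 cluster, had 11.4, 9.14 and 15.02 CPM in controls and 9.45, 18.3 and 15.96 CPM in resistants. Its difference was -0.27 in 2020 and 0.54 in 2021. OGFRL1, a relative of the opioid growth factor receptor gene, lies at chr6:71288811-71309059 on the long arm. Controls had 56.4, 55.4 and 64.3 CPM and resistants 68.3, 70.9 and 67.9 CPM, and all 3 resistant libraries were above them, with a difference of 0.23 ± 0.095 SE. KCNQ5, a potassium channel gene and the last member by position, had 2.21, 4.36 and 2.11 CPM in controls and 2.13, 3.41 and 4.44 CPM in resistants, and its groups overlap.

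The other 8 members above the shift, named after their values were seen, had fitted differences between -0.01 and 0.16 with overlapping groups. They include 3 transcription factor genes. FOXC1, a forkhead factor of basal-like breast cancer cells, was at 66.9 ± 16.2 CPM in controls and 72.3 ± 13.5 CPM in resistant cells (SD, n = 3 each). FOXQ1, its neighbour and also a forkhead gene, was at 8.14 ± 3.73 and 9.17 ± 4.88 CPM. RUNX2, a runt factor of bone development, was at 13.2 ± 2.77 and 13.9 ± 2.34 CPM, and it overlaps SUPT3H, which holds 5406 counts. The fitted differences of the 3 were 0.12, 0.12 and 0.08, against the common shift of -0.61.

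TNFRSF21, the death receptor DR6, was at 111 ± 30.1 CPM in controls and 122.9 ± 24.5 CPM in resistant cells. ADGRF4, an adhesion G protein-coupled receptor, was at 5.02 ± 4.79 and 4.71 ± 3.41 CPM, with the libraries of 2020 higher in both lines. FAM135A was at 64.4 ± 11.6 and 67.3 ± 4.08 CPM, PXDC1 differed by 0.03 ± 0.12 SE, and KIAA0319, a membrane protein of neurons was at 1.91 ± 0.342 and 1.92 ± 0.473 CPM. All of these stood within 1.2-fold of equal levels.

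Both members below the shift separated the lines without overlap. LINC03040 is a long non-coding RNA at chr6:44000585-44007612. Controls had 20.4, 24.6 and 40.1 CPM and resistants 7.16, 12.99 and 6.36 CPM. It was 3.19-fold lower (log2 difference -1.67 ± 0.31 SE) and 2.09-fold off the shift, and it overlaps SCIRT, which holds 77 counts.

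PEX39 encodes a small protein of peroxisomal import (chr6:42890265-42890821). Controls had 1.37, 2.699 and 2.17 CPM and resistants 0.485, 0.990 and 0.914 CPM. It was 2.62-fold lower (log2 difference -1.39 ± 0.24 SE) and 1.72-fold off the shift. Such levels are low, and 3 counts correspond to 0.032 to 0.0792 CPM in these libraries, a limit that covers counting error only.

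**Figure D3:**
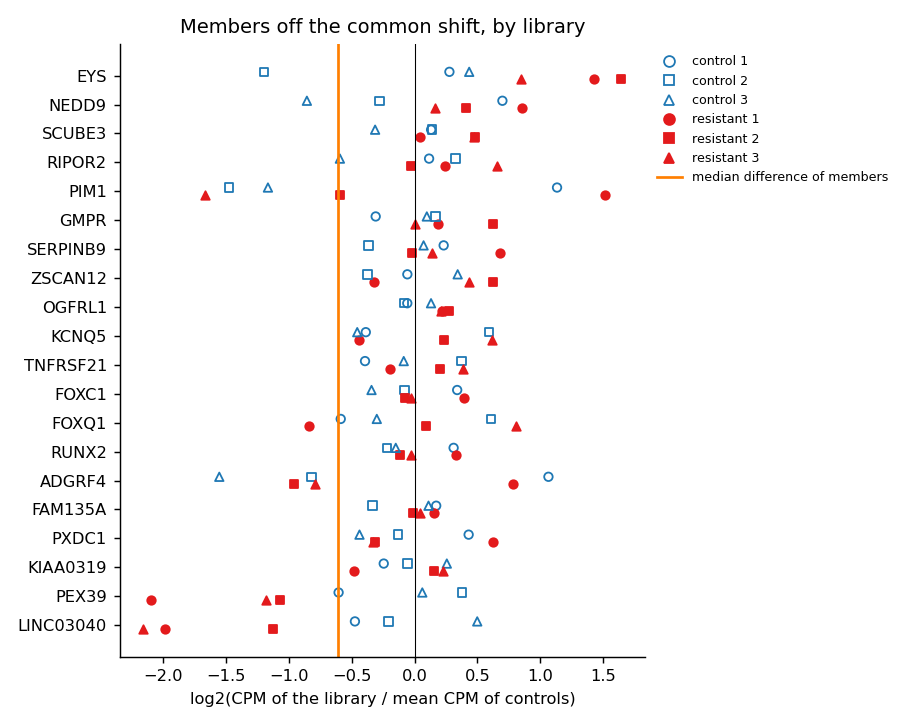
The log2 ratio of each library's CPM to the mean CPM of the 3 controls (x) for the 20 members off the common shift (y), with open blue symbols for controls and filled red symbols for resistant libraries; circles are 2020 libraries, squares and triangles 2021. The orange line marks the median difference of members, -0.61. Red symbols of EYS and OGFRL1 lie right of all blue ones, those of PEX39 and LINC03040 left of them, and in PIM1 and ADGRF4 the circles stand apart from the other symbols.

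Another 3 members deviated by 1.5-fold or more but were not called off the shift. EDN1, which encodes the vasoconstrictor peptide endothelin-1, had 135, 13.2 and 27.8 CPM in controls and 85.8, 39.5 and 22.5 CPM in resistants. Its difference was -0.65 in 2020 and 0.64 in 2021. RIMS1, a protein of synaptic vesicle release, differed by -2.32 in 2020 and 0.74 in 2021. PKHD1, the gene of fibrocystin in primary cilia, was 2.36-fold lower with an SE of 0.34 on the log2 scale.

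The number of members off the shift was the same under other scalings, but several members were off it only with particular libraries in. Under the 18 to 20 alternatives that apply to a gene, leaving aside the 2-fold rule, 9 of the 20 kept the description throughout: EYS, FOXC1, NEDD9, OGFRL1, RUNX2, SCUBE3, SERPINB9, TNFRSF21 and ZSCAN12. FOXQ1, PXDC1, PIM1 and LINC03040 lost it without control 1 and without resistant 1. Without control 2 KIAA0319, PIM1 and FAM135A lost it, and without control 3 FOXQ1, PXDC1, PIM1, LINC03040, ADGRF4 and KCNQ5. Without resistant 2 GMPR and KIAA0319 lost it, and without resistant 3 FOXQ1, KIAA0319, ADGRF4 and KCNQ5. Each of the 20 stayed on its side of the median in all alternatives run.

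The shift ran along the short arm and the median past the centromere was near 0. The 232 members before 60 Mb, on the short arm, had a median of -0.62 (1.54-fold lower) with 218 below 0. The 10 members after 60 Mb, on the long arm, had a median of -0.050 with 6 below 0, and 4 of them (EYS, FAM135A, OGFRL1 and KCNQ5) were above the shift. In the blocks of 10 Mb along the short arm the medians were -0.63, -0.56, -0.55, -0.76, -0.71 and -0.60. From 60 to 70 Mb, with 4 members, the median was -0.15, and from 70 Mb to the end, with 6 members, it was 0.031. The 258 genes of chromosome 6 beyond the segment had a median of -0.067. Their block medians ranged from -0.296 (90 to 100 Mb, 12 of 13 genes below 0) to 0.095 (140 to 150 Mb, 11 of 30 below 0).

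The step was present in each of the 3 resistant libraries. Against the controls of their batch their medians lay between -0.63 and -0.54 in the last block of the short arm and between -0.15 and -0.09 in the next block. That next block holds only 4 members, and in it controls 2 and 3 stood at -0.19 and 0.19 by the same measure. Of the 10 long-arm members 1 was called lower, and as above nothing is read from calls in this contrast. This member, SMAP1, a GTPase-activating protein gene of membrane traffic, was at 100 ± 8.70 CPM in controls and 74.2 ± 3.08 CPM in resistant cells. EYS, described above, was the highest of the long-arm members. PTP4A1, a phosphatase gene, differed by -0.21 ± 0.12 SE. LMBRD1, a cobalamin exporter of lysosomes, differed by -0.25 ± 0.11 SE. With the 232 short-arm members taken alone, the shift was -0.62, and 14 of them were above it and 2 below. The 4 long-arm members above the common shift were not part of that count.

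**Figure D4:**
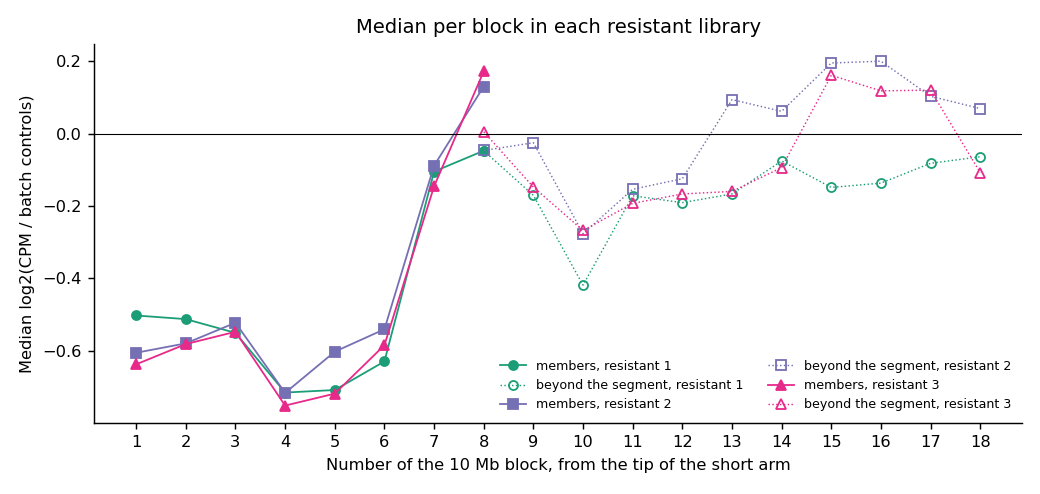
Median log2 ratio of CPM to the control libraries of the same batch (y) in each 10 Mb block of chromosome 6, numbered from the tip of the short arm (x), for the 3 resistant libraries. Filled symbols are members and open symbols genes beyond the segment. In blocks 1 to 6 all filled symbols lie between -0.75 and -0.50, and from block 7 on they lie near 0.

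At the edges of the rule, DUSP22, a phosphatase gene and the first member, was at 13.9, 18.3 and 17.4 CPM in controls and 9.56, 12.9 and 10.8 CPM in resistants, 1.49-fold lower. The 2 genes listed before it, LINC03066 and TRA-CGC5-1, are listed at 0. Beyond the last member, KHDC1 was at 3.35 ± 0.398 CPM in controls and 3.88 ± 0.445 CPM in resistant cells. CGAS, the cytosolic DNA sensor next to it, was at 0.721 ± 0.174 and 1.47 ± 0.798 CPM. Just inside the minimum level were GMPR (mean 1.03 CPM) and TDRD6 (1.05 CPM). Just outside it were DAXX (0.978 CPM) and PLA2G7 (0.963 CPM). PLA2G7, a secreted phospholipase that cleaves platelet-activating factor, lies within the stretch and was at 0.478 ± 0.0863 CPM in controls and 1.42 ± 0.194 CPM in resistant cells. It was left out by its low mean, so a member count says nothing of genes below the minimum.

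Between 29 and 33 Mb, where the major histocompatibility complex lies, the shift could hardly be read. Of 139 protein-coding genes there, 103 (74.1%) had 0 counts in all 6 libraries and 6 reached 1 CPM. In the rest of the stretch 11.1% of 461 genes, and beyond it 16.5% of 394, were at 0 throughout. Genes that every cell uses were affected: TUBB (a beta-tubulin), VARS1 (valyl-tRNA synthetase) and DDX39B (an RNA helicase) are listed at 0. Just past this block, RPS18, a ribosomal protein gene that starts at 33272075, had 0 to 3 counts per library. None of 42 listed class III genes became a member. The cause of these low counts was not tested. The 2 members inside the block, CCHCR1 and TCF19, followed the shift, with differences of -0.67 ± 0.11 SE and -0.73 ± 0.17 SE.

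Gene lists chosen for this stretch hold 132 of the 242 members, and 110 are in none. Over all tested genes the median was -0.0039 and 5.48% were called lower, and over the 110 unlisted members the median was -0.64 with 77 called. The lists are described by counts only, since the contrast chose the stretch.

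Mitochondrial protein genes, which include subunits of the mitochondrial ribosome, had a median of -0.75 (1.68-fold lower) and 16 of 16 members called lower. ALDH5A1, which breaks down succinic semialdehyde, went from 66.3 ± 9.70 CPM in controls to 34.5 ± 2.14 CPM in resistant cells, the lowest ratio of the list. LYRM4, a factor of iron-sulfur cluster assembly, was its highest, at 12.8 ± 0.368 and 9.02 ± 1.31 CPM.

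The list of cell cycle and DNA replication or repair genes had a median of -0.68 with 14 of 14 called lower. It also holds genes with their main roles elsewhere, such as CDKAL1 and PAK1IP1. PPP2R5D, a regulatory subunit of protein phosphatase 2A, had 90.4, 160 and 124 CPM in controls and 52.1, 70.9 and 70.0 CPM in resistants, 1.92-fold lower. E2F3, a transcription factor of S-phase entry, was at the upper end with 64.4 ± 27.97 and 49.8 ± 18.9 CPM. In RNA processing, transcription machinery and ribosome assembly the median was -0.67 and 15 of 17 members were called lower. PPIL1, a cyclophilin of the spliceosome, was lowest at 36.9 ± 6.63 and 18.9 ± 3.08 CPM, and the splicing factor gene SRSF3 highest at 371 ± 127 and 310 ± 114 CPM.

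Of 10 protein kinase genes 6 were called lower, with a median of -0.66. MAPK13, which encodes p38 delta, had 103, 157 and 135 CPM in controls and 50.5, 68.6 and 61.0 CPM in resistants. These groups lie far apart, and the fitted level was 2.18-fold lower (log2 difference -1.12 ± 0.11 SE), the largest difference among members above 50 CPM in controls. PIM1 was the highest kinase. Among 11 ubiquitin pathway members 9 were called lower, with a median of -0.60. UBR2, a ligase that recognises protein N-termini, was lowest, at 200 ± 10.7 and 110 ± 1.74 CPM, and KLHL31 highest with -0.11 ± 0.24 SE.

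Lipid metabolism genes had a median of -0.59 with 7 of 10 called lower. CYP39A1, an oxysterol hydroxylase, was lowest with -0.92 ± 0.26 SE, and ELOVL2, which elongates polyunsaturated fatty acids, highest with -0.28 ± 0.16 SE. Of 5 solute carriers 4 were called lower, with a median of -0.57. SLC35B2, which carries the sulfate donor PAPS into the Golgi, had 48.0, 77.0 and 63.8 CPM in controls and 25.9, 31.9 and 30.4 CPM in resistants, 2.12-fold lower. SLC25A27, a mitochondrial carrier, was highest at -0.38 ± 0.50 SE.

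In the SCAN and KRAB zinc finger cluster of 6p22 the median was -0.53, and 7 of 14 were called lower. Its lowest member was ZKSCAN4 at -0.63 ± 0.12 SE, and its highest was ZSCAN12. The 5 butyrophilins, immunoglobulin-family membrane proteins that T cells recognise, had a median of -0.43 with 1 called lower, BTN2A1 at -0.66 ± 0.12 SE, while BTN2A2 was highest at -0.35 ± 0.18 SE. Of the 3 clade B serpins 2 were called lower, SERPINB1 and SERPINB6, with a median of -0.60.

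The list of DNA-binding transcription factors, which also holds ID4, a factor that does not itself bind DNA, had a median of -0.40 (1.32-fold lower). Of its 20 members, 10 were called lower and 3 were above the shift (FOXC1, FOXQ1 and RUNX2). Their lowest was ZNF318, a nuclear zinc finger protein, at 174 ± 14.6 and 102 ± 19.6 CPM. Adhesion, cytoskeleton and junction genes had a median of -0.34 with 5 of 14 called lower and 3 above the shift, NEDD9, RIPOR2 and ADGRF4. CLIC5, a chloride channel protein bound to the actin cortex, was lowest at 3.05 ± 0.405 and 1.62 ± 0.774 CPM. The 6 secreted ligands and surface receptors had a median of -0.0085, with 0 called lower and 2 above the shift (TNFRSF21 and KCNQ5). EDN1 differed by 0.17 ± 0.45 SE, CRISP3 by -0.43 ± 0.52 SE and BMP5 by -0.58 ± 0.55 SE, none of them called off the shift. TNFRSF21 differed by 0.16 ± 0.13 SE, ADGRF1 by -0.17 ± 0.16 SE and KCNQ5, on the long arm, by 0.18 ± 0.29 SE. KCNQ5 is a channel, and without it the middle value is that of ADGRF1, an adhesion G protein-coupled receptor, at -0.17. BMP5, a bone morphogenetic protein, was the lowest at 3.25 ± 3.32 and 2.22 ± 1.46 CPM, and its groups overlap. Whether these lists differ from one another was not tested.

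**Figure D5:**
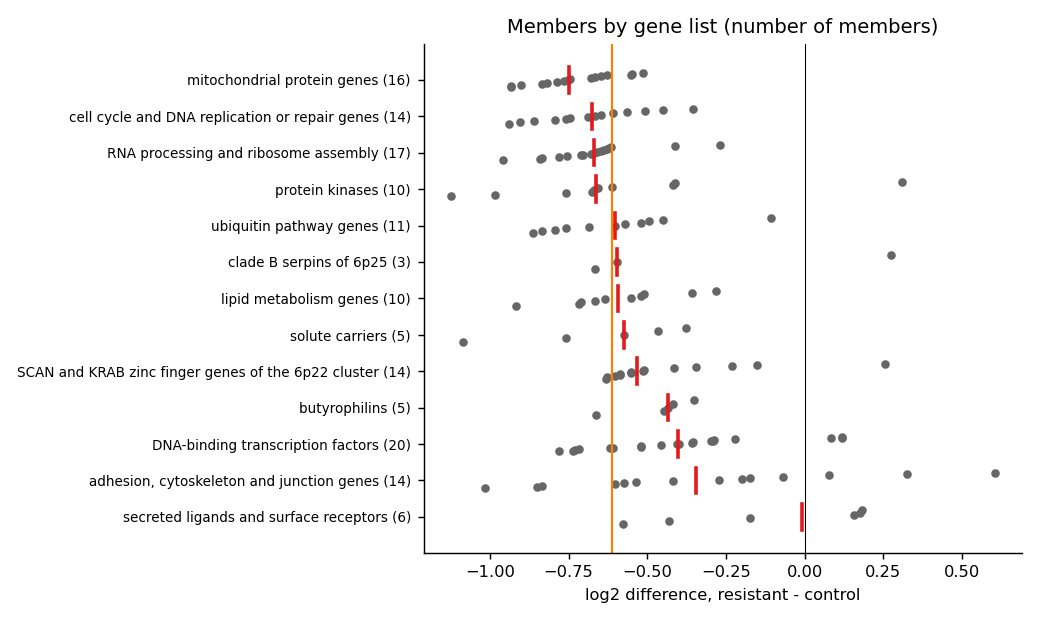
Fitted log2 difference between resistant and control libraries (x) of each member of 13 gene lists (y, number of members in brackets). Grey points are genes, red bars list medians, the orange line the median over all members (-0.61) and the black line equal levels. Mitochondrial, cell cycle and RNA processing genes lie left of -0.25. The 6 members listed as secreted ligands and surface receptors, among them the channel gene KCNQ5, scatter from -0.58 to 0.18. Their standard errors, given in the text, are not drawn.

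The contrast between batches did not choose the stretch and was tested. Of the members, 55 (22.7%) differed between 2021 and 2020, 31 higher and 24 lower in 2021, where 22.9% of all tested genes differed (edgeR quasi-likelihood test, adjusted p under 0.05). The median batch difference was 0.032 over members and 0.019 over all tested genes. RN7SK, the small nuclear RNA that inhibits P-TEFb, fell by 4.55 on the log2 scale (± 0.55 SE, adjusted p = 0.0105), from 166 and 138 CPM in control 1 and resistant 1 to 2.26 to 9.66 CPM in the 4 libraries of 2021. PTP4A1 fell by 1.24 (± 0.13 SE, adjusted p = 0.000848), and KCNK5, a potassium channel gene, rose by 1.11 (± 0.11 SE, adjusted p = 0.000903). Among the 20 members off the shift 8 differed between batches, and among the 222 on it 47. Without control 1 or resistant 1, which leaves 1 library in 2020, the count of 55 was 8 and 6, and without resistant 2 or 3 it was 35 and 20.

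Whether the difference between lines itself differed between batches was tested with an interaction term. It passed in 0 members with edgeR, where 0% of all tested genes passed, and in 0 members with DESeq2 or limma voom. DESeq2 called 2 of all tested genes. At an unadjusted p under 0.05 edgeR had 2 members, RIMS1 and ECI2, a mitochondrial enzyme of fatty acid oxidation, against 187 of all tested genes. With 2 residual degrees of freedom this does not show that the batches acted alike.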

How the data were processed

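RNA was measured in 6 libraries. Per the labels' protocols, they were made from 100 ng of total RNA and enriched by capture with exome probes. Trimmomatic 0.38, STAR 2.7.8a, featureCounts of Subread and the build GRCh38 are named per the submitters' processing notes. Not given in the sources used here are the annotation release, the strand setting and how multiply mapped reads were counted. The deposited values are raw counts per Entrez gene, and 27745 of 28395 IDs matched a RefSeq table of GRCh38.p14, which gave names and positions.

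Counts were filtered with filterByExpr by group, scaled by TMM and fitted with edgeR 4.0.16 (glmQLFit with robust dispersions, glmQLFTest) with line and batch as terms, which leaves 3 residual degrees of freedom. P-values were adjusted by Benjamini-Hochberg over 13950 genes. Standard errors come from the F statistic, and intervals leave out the error of the common shift. Ratios per library use log2 CPM with a prior count of 2. The test was checked on simulated counts with no batch effect and with libraries drawn independently. That check therefore does not cover batch differences or deviations shared between libraries. All 242 members passed the filter. One marker gene is not reported here.

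The members and the gene lists were chosen with earlier results of these data known. Named are up to 10 members farthest above and below the shift, the extremes of each list, and genes at each end and at the CPM minimum.

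Deviations from the group mean of libraries with the same replicate number correlated at 0.729, 0.143 and 0.155 across genes. The first pair is the 2020 batch. In 2021 crossed numbers correlated at 0.57 and 0.477. Alternatives were DESeq2 1.42.0, limma 3.58.1, other scalings and filters, and fits without single libraries.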

Additional observations from a re-analysis of the deposited data

Results flagged for a closer look

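In 8 of the 18 members above the shift the difference between lines had opposite signs in the 2 batches. In 2 of these resistant 1 was below control 1 and both 2021 resistant libraries were above both 2021 controls. ZSCAN12 differed by -0.27 in 2020 and 0.54 in 2021, and SCUBE3 by -0.085 in 2020 and 0.56 in 2021 (log2). The interaction term passed in neither (edgeR quasi-likelihood test, adjusted p = 1), and 2020 holds 1 library of each line.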

How the results depend on the processing

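The median over members stayed negative in all alternatives, from -0.64 to -0.58 with single libraries left out and -0.57 with upper quartile scaling, which moved the median of all tested genes to 0.034. Members called lower numbered 163, and 55 without the batch term, 89 to 170 with single libraries left out. With the replicate number as the block instead of the batch there were 149, and 17 and 2 members above and below the shift. The replicate block moved no count by over 1.5 times. In 2021 crossed numbers correlated more closely (0.57 and 0.477) than the pairs of this block (0.143 and 0.155). A block by crossed numbers was not fitted. Members called higher numbered 0, but 2 with DESeq2, 1 in 2021 alone and 0 to 1 without single libraries. Members above the shift numbered 18, and 15 to 18 without single libraries, 12 without the batch term, at a mean of 5 CPM or with a 99% interval, and 2 when 2-fold was asked. Members below it numbered 2, but 1 with no filter, without the batch term, in 2021 alone, at a mean of 5 CPM, with a 99% interval and at 2-fold. Batch calls ranged from 6 to 76 without single libraries. With no filter the interaction called 2 members. The causes were not tested. Robust dispersions were set, and the short-arm members taken alone, after seeing the data. Low counts between 29 and 33 Mb and below 1 CPM limit what can be read.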
